A study of Danio rerio with 2 samples.

Results

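The mitotic genes described here are 37 zebrafish genes whose proteins drive or carry out cell division. They were listed by symbol, although earlier results of these data were known when they were chosen. By symbol, 36 of the 37 were found among the 27771 genes of the feature table, and incenp was not found under that symbol. The symbol ube2c belongs to 2 features (ENSDARG00000114670 and ENSDARG00000101618), so the 36 genes gave 37 features, all of which also appear in the authors' table of cluster means. The second ube2c feature held 3 UMIs in the wildtype library and 6 in the mutant library (UMIs are unique molecular identifiers, counted once per captured transcript), and how reads were shared between the copies is uncertain.

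Cells enter mitosis when Cdk1, bound to A- and B-type cyclins, is activated. Condensin then compacts the chromosomes, kinetochores attach them to a spindle built by motor proteins and kinases, and a checkpoint holds back the anaphase-promoting complex (APC/C) until every chromosome is attached. Transcripts of these genes accumulate late in the cell cycle and are scarce in resting cells, which makes them a common mark of dividing cells. In the embryonic zebrafish trunk, vessels are still growing by endothelial cell division and primitive red cells multiply in the circulation.

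Trunk cells of embryos at 27 hours post fertilization were freed with liberase and sorted by fluorescence for membrane mCherry driven by the promoter of kdrl, an endothelial receptor gene, and their transcript 3′ ends were sequenced in droplets. Wildtype fish carried the Gal4-type activator Tg(miR-223:KalTA4)ya362, the green reporter it drives, Tg(5xUAS:eGFP)nkuasgfp1a, and the sorted marker, Tg(kdrl:hras-mCherry)s896. Mutant fish shared the reporter and the marker, carried the activator as allele ya363, and had the allele ya303 of the microRNA gene miR-223, for which no feature of that symbol was found, so the genotype was not checked in the counts. The study's title concerns limits on the conversion of endothelial cells into blood stem cells, and the comparison bears on which cell types divide in each genotype.

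Each genotype had 1 library, so no test was possible, and genotype cannot be told apart from clutch, sort or library preparation. All intervals are 95% intervals for counting error only, and those of summed UMIs also leave out variation between cells, which makes them too narrow. The filters left 7481 cells with a median of 8316 UMIs in the wildtype library and 8240 with a median of 9778 in the mutant, and 79 barcodes occurred in both. Despite the sort, the cells fell into endothelial-like, erythroid-like, blood progenitor-like, myeloid-like, mesenchymal-like, epidermal-like and skeletal muscle-like clusters, named here from marker genes. Several clusters held cells of nearly 1 library alone. Of the clusters built here, the venous-like cluster 0 held 2058 wildtype and 36 mutant cells and the venous-like cluster 2 held 85 and 1355. The erythroid-like clusters 3, 8 and 9 held 55, 43 and 983 wildtype cells and 1280, 987 and 41 mutant cells. The authors' table numbers its clusters separately, so the same number names other cells there.

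Across the authors' 15 clusters, the mitotic genes were low in muscle, in the mixed endothelial-like cluster 5 and in the largest venous cluster of each library, and high in arterial, erythroid and mesenchymal cells. Levels are UMIs of the mitotic genes summed over the cells of a cluster and scaled to all UMIs of the same cells (CPM), and were recovered from the authors' deposited means. The skeletal muscle-like cluster 10, whose cells have left the cell cycle to form fibres, had 199 CPM in wildtype (exact Poisson interval 163 to 240) and 187 CPM in mutant (158 to 218). Above it, the arterial-like cluster 3 had 1524 CPM in wildtype (1493 to 1554) and 1820 in mutant (1784 to 1857), a log2 ratio of mutant over wildtype of 0.26 (exact conditional interval 0.22 to 0.30). The mesenchymal-like cluster 7, with col1a1a and col1a2 among its leading genes, had 1500 CPM in wildtype (1431 to 1572) and 2264 in mutant (2183 to 2347), a log2 ratio of 0.59 (0.51 to 0.68). The erythroid-like cluster 4 had 1763 CPM in wildtype (1726 to 1800) and 1615 in mutant (1591 to 1640), a log2 ratio of -0.13 (-0.16 to -0.09). With globin genes left out of the total, that ratio was -0.36 (-0.40 to -0.32). Cluster 4 held 542 wildtype and 1117 mutant cells, with means of 9052 and 9115 UMIs per cell. The erythroid-like class built from the raw counts below held 1294 and 2639 cells, with medians of 30906 and 27709 UMIs. The authors' clusters and the classes built here thus do not hold the same cells. A cluster led by the tubulin genes tuba1a and tuba1c, left unnamed, was high in both libraries at 2286 and 2257 CPM, and its log2 ratio of -0.02 (-0.12 to 0.09) did not lie beyond counting error.

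The blood progenitor-like cluster 8, marked by myb and cebpa, had 631 CPM in wildtype (589 to 674) and 893 in mutant (843 to 946). The mixed endothelial-like cluster 1 had 837 and 1034 CPM, and the mixed endothelial-like cluster 5 had 462 and 345 CPM. The venous-like cluster 6, led by apoc1 and aqp8a.1, had 982 CPM in wildtype (931 to 1035) and 899 in mutant (868 to 931). The myeloid-like cluster 14, led by mfap4, had 1264 and 1037 CPM over 33 and 30 cells, and per cell rather than per UMI its log2 ratio was 0.064 in place of -0.29. Cluster 11, led by the neutrophil lysozyme gene lyz, held 18 wildtype cells and was not read. Leaving aside cluster 11 and the venous-like clusters 0 and 2, intervals lay above 0 in clusters 1, 3, 7, 8 and 13, below 0 in clusters 4, 5, 6 and 14, and on both sides of it in clusters 9, 10 and 12.

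**Figure D1:**
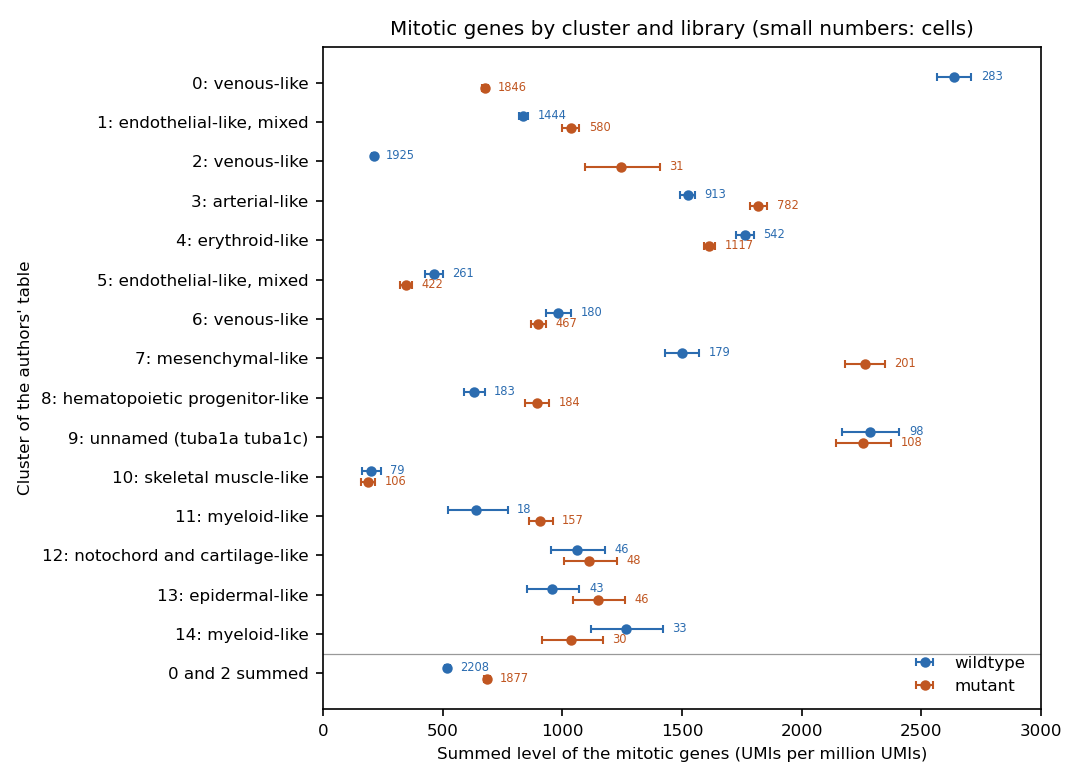
Summed level of the mitotic genes (x axis, CPM) in each cluster of the authors' table, with exact Poisson 95% intervals as bars and the number of cells beside each point; blue is the wildtype and orange the mutant library. Cluster 0 is at 2637 CPM in wildtype and 676 in mutant, and the lowest row shows 519 and 685 CPM when clusters 0 and 2 are summed.

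The authors' venous-like clusters 0 and 2 showed the widest gaps between libraries and divided the cells in another way in each. Cluster 0 had 2637 CPM over 283 wildtype cells (2567 to 2709) and 676 CPM over 1846 mutant cells (662 to 690). Cluster 2 had 212 CPM over 1925 wildtype cells (204 to 220) and 1244 CPM over 31 mutant cells (1095 to 1407). Of the cells of both clusters, 12.8% lay in cluster 0 in wildtype and 98.3% in mutant, and in wildtype those 12.8% of cells held 64.4% of the mitotic UMIs. In each library the larger of the 2 clusters was the one with the lower level. Summed as 1 cluster, a choice made with the values in view, they had 519 CPM in wildtype (508 to 531) and 685 in mutant (671 to 699). The direction in cluster 0 thus reversed, from a log2 ratio of -1.96 to one of 0.40 (0.36 to 0.44).

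Within the authors' clusters, single genes that averaged 5 CPM or more over both libraries were then read by their own intervals. The mitotic genes rose together in the same endothelial-like cells, as given below, so counts of them are not independent observations. In cluster 0, 34 of 34 mitotic genes lay below 0, where 17.3% of all genes did, and 0 above (20.4%), and in cluster 2, 21 of 26 lay above 0 (10.1% of all genes) and 0 below (6.25%). With both clusters summed, 18 of 30 lay above 0 (24.6% of all genes) and 0 below (23.1%). There, ube2c, the ubiquitin-conjugating enzyme of the APC/C, stood at 68.3 CPM in wildtype and 102 in mutant, and cenpf, a kinetochore protein gene, at 5.42 and 10.5 CPM. In the other endothelial-like clusters, 9 of 32 lay above 0 in cluster 1 (21.1% of all genes) and 0 below (11.1%), 0 of 25 above in cluster 5 (14.2%) and 6 below (8.88%), and 0 of 32 above in cluster 6 (8.48%) and 7 below (13.3%). In the arterial-like cluster 3, 19 of 34 had intervals above 0, where 16.8% of all genes did, and plk1, a kinase of mitotic entry, was the single gene below 0, against 15.2% of all genes. In the mesenchymal-like cluster 7, 16 of 34 lay above 0 (9.89% of all genes) and 0 below (5.05%). The progenitor-like cluster 8 had 9 of 34 above 0 (8.99% of all genes) and 0 below (5.46%). In the erythroid-like cluster 4, 11 of 35 lay below 0, where 6.2% of all genes did, and 4 above, where 56.1% did. In the epidermal-like cluster 13, whose sum lay above 0, 0 of 32 genes did so (5.16% of all genes), and 2 lay below (3.42%), the kinetochore gene spc24 at 47.2 and 13.4 CPM and ube2c at 173 and 113 CPM. The myeloid-like cluster 14 had 1 of 34 above 0 (4.7% of all genes) and 2 below (4.01%), and the muscle cluster 10 had 0 of 14 above (7.62%) and 1 below (5.57%). In the clusters 9 and 12, 0 of 35 and 0 of 34 lay above 0 (5.77% and 4.49% of all genes) and 0 below (5.11% and 2.91%).

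Which single cells divide was read from the raw counts. Every cell was thinned at random to 2000 UMIs, and a cell passed the mitotic gate with at least 5 UMIs of the mitotic genes from at least 3 of them. Muscle served as the background, since fibres do not divide: 1 of 106 wildtype cells passed (0.943%, exact binomial interval 0.0239 to 5.14%; median depth 20397 UMIs) and 3 of 131 mutant cells (2.29%, 0.475 to 6.55%; 17254 UMIs). The summed level in these muscle cells was 167 CPM in wildtype and 260 in mutant, while the authors' muscle cluster above had 199 and 187 CPM. That cluster held 79 wildtype and 106 mutant cells, with means of 6868 and 7839 UMIs per cell, so the 2 sets differ in cells and depth. The background thus differed between these sets, and its part in the other values was not tested.

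Of the named classes, erythroid-like and mesenchymal-like cells passed most often, while an unnamed cluster led by tuba1a passed in 44.9% of wildtype and 36.5% of mutant cells. Among erythroid-like cells, 475 of 1289 passed in wildtype (36.9%, 34.2 to 39.6%) and 846 of 2632 in mutant (32.1%, 30.4 to 34.0%), which is -4.71 percentage points from wildtype to mutant (by Newcombe, -7.90 to -1.55). Among mesenchymal-like cells, 40 of 135 passed in wildtype (29.6%) and 53 of 138 in mutant (38.4%), a difference of 8.78 points whose interval of -2.46 to 19.7 included 0. Endothelial-like cells passed less often, with 630 of 4744 in wildtype (13.3%, 12.3 to 14.3%) and 671 of 4123 in mutant (16.3%, 15.2 to 17.4%), a difference of 2.99 points (1.51 to 4.48). It was 1.56 points (0.30 to 2.82) with a stricter gate of 8 UMIs from 4 genes and 1.90 (0.53 to 3.28) without the 3 mitotic genes with most UMIs. Blood progenitor-like cells had 31 of 202 in wildtype (15.3%, 10.7 to 21.1%) and 34 of 142 in mutant (23.9%, 17.2 to 31.8%), a difference of 8.60 points (0.18 to 17.4). That interval took in 0 under the stricter gate (2.36, -3.98 to 9.38), with cells given to the authors' clusters (4.78, -1.67 to 11.4), at resolution 0.5 (6.90, -1.94 to 16.3), without the 3 top genes (6.14, -1.59 to 14.4) and at full depth (3.91, -6.33 to 14.2). Myeloid-like cells had 45 of 191 (23.6%) and 115 of 386 (29.8%), and epidermal-like cells 8 of 39 (20.5%) and 6 of 44 (13.6%); both intervals of the difference included 0. The myeloid difference was 6.23 points (-1.59 to 13.5), and 12.8 points (4.35 to 20.7) when cells were thinned to 4000 UMIs, where the interval lay above 0. At full depth, where deeper cells pass more easily, 21.3% and 25.2% of endothelial-like and 95.1% and 97.4% of erythroid-like cells passed. The erythroid difference there was 2.25 points (1.01 to 3.67), a change of sign with nearly all cells of both libraries passing. A gate scaled to depth, at 0.25% of a cell's UMIs, passed 34.4% and 26.9% of erythroid-like cells. For myeloid-like cells it gave a difference of 9.97 points (2.76 to 16.5). The erythroid interval included 0 with a gate of 3 UMIs from 2 genes (-1.43 points, -4.67 to 1.86) and with thinning to 4000 UMIs (-2.99, -6.08 to 0.17).

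**Figure D2:**
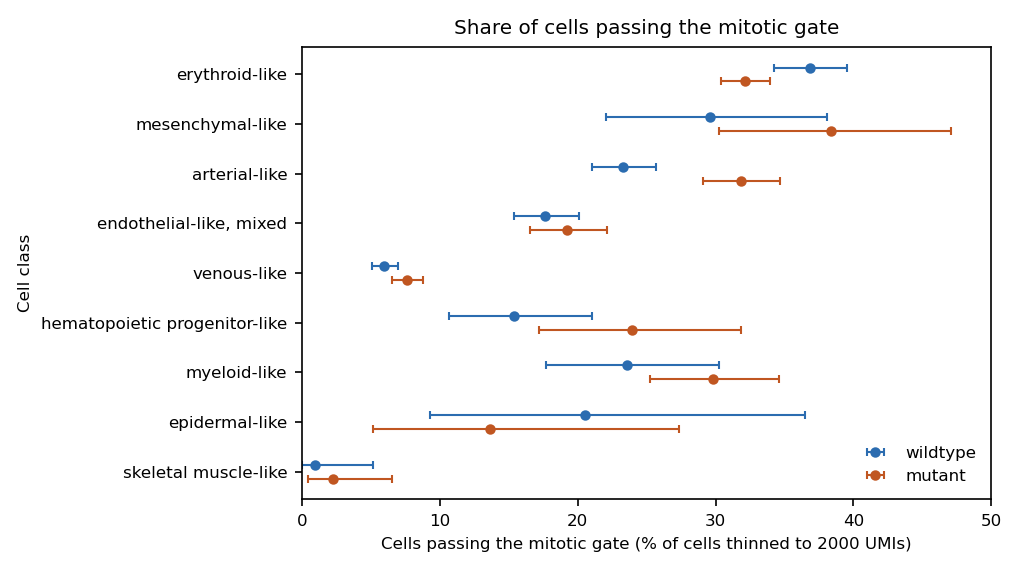
Share of cells passing the mitotic gate (x axis, % of cells thinned to 2000 UMIs) in each class built here, with exact binomial 95% intervals; blue is the wildtype and orange the mutant library. Arterial-like cells are at 23.3% and 31.8%, the wildtype interval ending below the start of the mutant one, and muscle-like cells are at 0.943% and 2.29%.

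Within the endothelium, the share past the gate differed by vessel kind in both libraries. Arterial-like cells, named from genes such as dll4 and cldn5b, passed in 306 of 1314 in wildtype (23.3%, 21 to 25.7%) and 346 of 1087 in mutant (31.8%, 29.1 to 34.7%), a difference of 8.54 points (4.96 to 12.1). With the gate of 8 UMIs from 4 genes it was 2.74 points, with an interval of -0.34 to 5.86 that included 0, and without the 3 top genes 4.67 points (1.32 to 8.04). Venous-like cells, named from genes such as lyve1b and dab2, passed in 144 of 2410 in wildtype (5.98%, 5.06 to 7.0%) and 170 of 2229 in mutant (7.63%, 6.56 to 8.81%), a difference of 1.65 points (0.20 to 3.12). The summed level gave the same order, at 1856 and 2344 CPM in arterial-like and 629 and 801 CPM in venous-like cells. The remaining endothelial-like cells passed in 17.6% and 19.2%, and their summed levels of 1591 and 1594 CPM did not differ beyond counting error. Their clusters, as built here, went in opposite directions, with both intervals including 0. Cluster 4 passed in 25.7% and 20.9%, lying -4.76 points apart (-9.93 to 0.36), and cluster 5 in 10.5% and 15.1%, a difference of 4.59 points (-0.33 to 10.2). With each library weighted to the same mix of the 3 kinds, the summed endothelial level was 1137 CPM in wildtype and 1374 in mutant, 1.21-fold. The mix of clusters within a kind was not matched. Globin UMIs, a measure of red cell RNA, made up 1.0% and 0.956% of endothelial-like UMIs.

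Among the clusters built here, numbered apart from the authors' clusters, the arterial difference was present in both arterial-like ones. The mutant share was lower in 3 of the 4 venous-like clusters, beyond counting error in clusters 2 and 7. In cluster 1, led by aqp8a.1 and the tip cell gene esm1, 251 of 775 wildtype cells (32.4%) and 277 of 621 mutant cells (44.6%) passed, a difference of 12.2 points (7.09 to 17.3). In the other, cluster 6, 55 of 539 (10.2%) and 69 of 466 (14.8%) passed, a difference of 4.60 points (0.52 to 8.79). Both were led by aqp8a.1, a gene of the venous list, and dll4 was among the leading genes of cluster 6 and not of cluster 1. They were named arterial-like because, against all endothelial-like cells, the mean over the arterial list was raised and that over the venous list lowered. Among veins, cluster 0 had 38 of 2026 wildtype cells (1.88%) and 0 of 34 mutant cells, for which the exact binomial interval allows a share of up to 10.3%. Its difference of -1.88 points had an interval of -2.56 to 8.29. Cluster 2 had 5 of 78 wildtype cells (6.41%) and 27 of 1324 mutant cells (2.04%), lying -4.37 points apart (-12.1 to -0.62). The venous-like cluster 7, led by aqp8a.1 and apoc1, was also lower in mutant, with 49 of 250 wildtype cells (19.6%) and 92 of 819 mutant cells (11.2%), lying -8.37 points apart (-14.1 to -3.34). The fourth, a small venous-like cluster, lay almost wholly past the gate, with 52 of 56 wildtype cells (92.9%) and 51 of 52 mutant cells (98.1%) passing and a difference of 5.22 points (-4.05 to 15.2). The mitotic genes had been left out of the clustering, but genes outside the lists whose level followed theirs, such as kpna2 and kifc1, were not removed with them. Finer clustering (resolution 2) gave a venous difference of -5.79 points (-8.64 to -3.42), so the venous direction depended on which clusters were called venous. Cluster 7, which passed more often than clusters 0 and 2, held 250 of 2410 venous-like cells in wildtype and 819 of 2229 in mutant. The part of this mix in the venous difference was not tested.

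The single-cell distribution had a different shape in vessels and in red cells. In endothelial-like cells, 61.7% of wildtype and 57.7% of mutant cells had 0 mitotic UMIs after thinning, and 179 and 169 cells had 4 or 5. Those with 10 or more were 362 of 4744 (7.63%) and 354 of 4123 (8.59%), a narrower gap than the 13.3% and 16.3% past the gate. In arterial-like cells, 13.1% and 14.7% had 10 or more, beside 23.3% and 31.8% past the gate. In endothelial-like cells as a whole and in arterial-like cells, the difference between libraries was thus smaller among cells far past the gate. In venous-like cells it was not smaller, with 3.07% and 4.76% at 10 or more beside 5.98% and 7.63% past the gate. Erythroid-like cells had a median of 3 thinned mitotic UMIs in both libraries, 9.23% and 9.61% of cells had 0, and 253 and 562 cells lay at 4 or 5, beside the gate. At full depth, at medians of 30906 and 27709 UMIs per cell, erythroid-like cells held a median of 49 mitotic UMIs in wildtype and 42 in mutant, and 0.696% and 0.189% held none. Globins took 43.7% and 38.1% of their UMIs, so that thinned cells of this class held fewer UMIs of other genes than those of the other classes. With globin genes removed before thinning, 63.8% of wildtype and 55.8% of mutant erythroid-like cells passed, a difference of -8.04 points (-11.3 to -4.75).

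**Figure D3:**
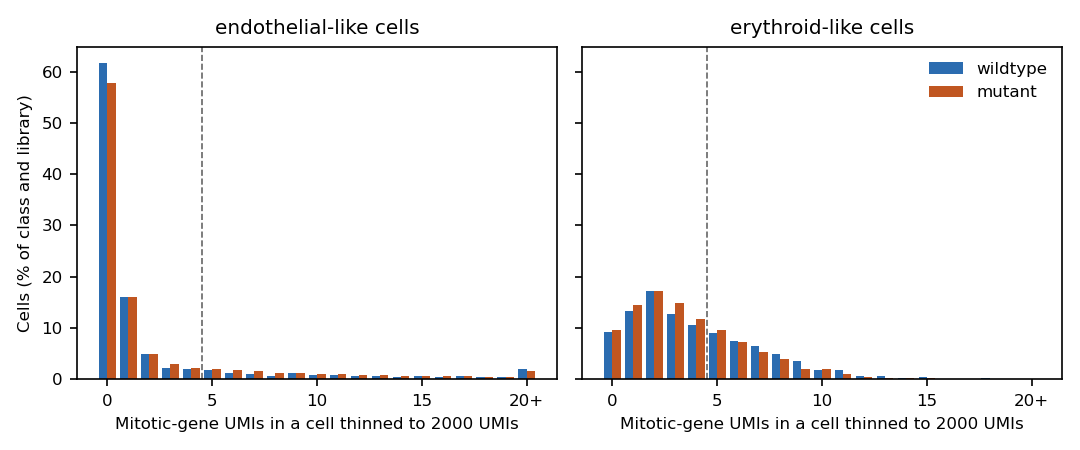
Distribution of mitotic-gene UMIs per cell thinned to 2000 UMIs (x axis) as a percentage of the cells of each class and library (y axis); the dashed line marks the gate of 5 UMIs. Endothelial-like cells pile up at 0 with a long tail to 20 or more, and erythroid-like cells peak at 2 in both libraries.

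The erythroid-like clusters built here did not share a direction. The wildtype-rich cluster 9 passed in 410 of 982 wildtype cells (41.8%) and 12 of 38 mutant cells (31.6%), lying -10.2 points apart (-23.0 to 5.99). The mutant-rich cluster 3 passed in 23 of 55 wildtype cells (41.8%) and 281 of 1279 mutant cells (22.0%), lying -19.8 points apart (-33.2 to -7.54). The mutant-rich cluster 8 passed in 16 of 43 (37.2%) and 479 of 987 (48.5%), a difference of 11.3 points (-3.93 to 24.5). The cluster led by blf passed in 7 of 64 wildtype cells (10.9%) and 74 of 328 mutant cells (22.6%), a difference of 11.6 points (0.82 to 19.0). A further cluster of 145 wildtype cells passed in 13.1%.

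The mitotic genes marked the same endothelial cells as one another. When each gene was left out and cells were gated by the rest, every feature except the second ube2c was higher in gated than in other endothelial-like cells. The folds in wildtype were largest for cenpf (77.1 against 2.19 CPM in wildtype, 35.2-fold; 26.2-fold in mutant) and for the B-type cyclin ccnb1 (152 against 4.52 CPM, 33.6-fold; 28.3-fold). The mitotic kinase gene cdk1 was 28.5-fold and 24.5-fold higher, and the APC/C activator cdc20 25.8-fold and 21.2-fold. Of genes at 5 CPM or more, they were smallest for the condensin gene smc4 (66.0 against 10.9 CPM, 6.04-fold; 5.86-fold in mutant), the kinetochore gene spc25 (8.06-fold and 7.11-fold) and cdca5, which encodes the cohesion factor sororin (9.27-fold and 8.05-fold). In erythroid-like cells the same folds were smaller, from 3.0-fold for ccnb3 and 2.90-fold for the spindle motor gene kif11 to 1.07-fold for smc2 and 0.966-fold for smc4 in wildtype. Gated cells were also deeper, with medians of 9011 against 7244 UMIs in wildtype and 8705 against 7167 in mutant endothelial-like cells.

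**Figure D4:**
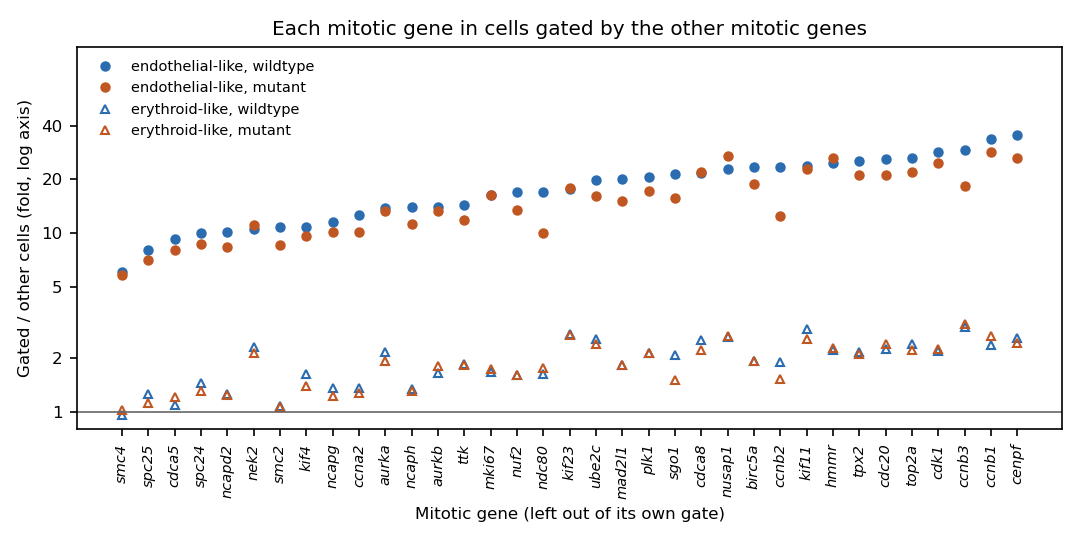
Level of each mitotic gene in cells gated by the other mitotic genes over its level in the remaining cells (y axis, fold, log axis), ordered by the wildtype endothelial-like value; circles are endothelial-like and triangles erythroid-like cells, blue the wildtype and orange the mutant library. Endothelial-like values run from 6.04 for smc4 to 35.2 for cenpf in wildtype, and erythroid-like values reach 3.08.

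Other cell cycle genes, from lists that were not used in the gate, separated the gated endothelial cells too. Of further mitotic genes, 56 of 57 tested in wildtype and 56 of 58 in mutant were at least 1.5-fold higher in gated cells and 0 lower, where 10.7% and 11.7% of all genes were higher and 9.12% and 11.2% lower. They were led by aspm, a spindle pole protein gene, and by prc1a and prc1b, which bundle the central spindle (log2 ratios of 4.80, 4.66 and 4.61 in wildtype). DNA replication genes were mixed, with 28 of 52 higher and 3 lower in wildtype and 31 of 55 higher and 4 lower in mutant. The ribonucleotide reductase genes rrm1 and rrm2 had log2 ratios of 1.96 and 1.90 in wildtype, while the replicative helicase genes mcm6, mcm5 and mcm2 were lower at -1.04, -0.85 and -0.80. Of cell cycle exit genes, 21 were tested in wildtype and 22 in mutant, and 2 were higher and 4 lower in each library. Of all genes, 10.7% and 11.7% were higher and 9.12% and 11.2% lower. The antiproliferative gene tob1b was lower in gated cells of both libraries, at 104 against 201 CPM in wildtype and 92.8 against 196 in mutant, as was the stress gene gadd45ba, at 74.4 against 120 and 67.2 against 131 CPM. The Cdk inhibitor gene cdkn1cb was higher, at 7.08 against 3.28 and 12.2 against 3.14 CPM.

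Mutant and wildtype endothelial-like cells differed by a small amount spread over nearly all mitotic genes. The summed level was 1145 CPM in wildtype (1134 to 1155) and 1363 in mutant (1351 to 1376), a log2 ratio of 0.25 (0.23 to 0.27). Of 33 mitotic genes that reached 5 CPM, 0 were 1.5-fold higher, where 3.95% of all genes were, and 0 lower, where 3.19% were. Even so, 32 of 33 had a ratio above 1 (57.5% of all genes), 24 had an interval above 1 (34.7% of all genes) and 0 below (23.5%). Their median log2 ratio was 0.25, beside 0.04 over all genes tested, and their ratios ran from 0.977 for cdc20 to 1.42 for top2a. The kinase gene nek2, the chromosome motor gene kif4, bub1 and the second ube2c feature lay under 5 CPM and were not counted. The genes that were counted rose together in the same gated cells, so they are not independent observations. That limit also applies to such counts in the other classes below.

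By role, the cyclins and Cdk1 summed to 171 CPM in wildtype and 199.6 in mutant. Among them cdk1 stood at 91.6 CPM in wildtype and 107 in mutant (1.17-fold, 1.12 to 1.23), and ccnb1 at 27.8 and 33.6 CPM (1.21-fold, 1.11 to 1.32). The mutant was higher for both. The APC/C genes parted, since ube2c was at 144 and 187 CPM (1.3-fold, 1.25 to 1.35) while cdc20 was at 42.4 and 41.4 CPM (0.977-fold, 0.909 to 1.05). Among kinases and checkpoint genes, mad2l1, whose protein restrains Cdc20, was at 74.6 and 98.2 CPM (1.32-fold, 1.25 to 1.39). By contrast plk1 was at 64.0 and 65.8 CPM (1.03-fold, 0.971 to 1.09), and aurka, a kinase of spindle poles, at 39.1 and 41.9 CPM (1.07-fold, 0.995 to 1.15), and neither lay beyond counting error. The checkpoint kinase gene bub1 was nearly absent from both libraries, with 18 and 16 UMIs in endothelial-like cells, and 69 and 53 over all cells.

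Of the chromosomal passenger complex, which corrects kinetochore attachments, the kinase gene aurkb was at 70.9 CPM in wildtype and 77.1 in mutant (1.09-fold, 1.03 to 1.15) and the survivin gene birc5a at 38.6 and 49.5 CPM (1.28-fold, 1.19 to 1.38). In the Ndc80 complex, which binds microtubules at the kinetochore, spc24 was at 32.9 and 42.9 CPM (1.3-fold, 1.21 to 1.41), while its partner spc25 was at 27.1 and 29.2 CPM (1.07-fold, 0.983 to 1.17). The spindle assembly gene tpx2 was at 48.0 and 52.8 CPM (1.1-fold, 1.03 to 1.17), and nusap1, a microtubule-binding protein gene, at 38.5 and 39.2 CPM (1.02-fold, 0.947 to 1.1). Chromosome proteins had the largest summed ratio of the 7 roles, 1.27-fold (161 and 204 CPM). They were led by top2a, the topoisomerase that untangles sister chromatids, at 29.2 and 41.4 CPM (1.42-fold, 1.31 to 1.53), and by the proliferation marker mki67 at 36.3 and 48.0 CPM (1.32-fold, 1.23 to 1.42).

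Split by vessel kind, all 34 mitotic genes tested in arterial-like cells had a ratio above 1 (56.2% of all genes), 26 had an interval above 1 (22.6%) and 0 below (15.7%). Of these, top2a was past 1.5-fold, at 45.1 CPM in wildtype and 71.0 in mutant (1.58-fold, 1.40 to 1.77), where 4.98% of all genes were higher and 3.5% lower. This call was lost with a pseudocount of 10 CPM and with median-of-ratios scaling. The next in size were ncaph, a condensin subunit gene, at 20.5 and 29.9 CPM (1.46-fold), and mki67 at 63.0 and 89.9 CPM (1.43-fold). At the other end cdc20 was at 71.9 and 72.5 CPM and plk1 at 107 and 111 CPM. In venous-like cells 31 of 32 had a ratio above 1 (54.7% of all genes) and 20 an interval above 1 (29.2%), with 0 below (22.3%). Past 1.5-fold were kif11, at 10.5 and 16.6 CPM (1.58-fold, 1.33 to 1.89), and mad2l1, at 38.4 and 58.6 CPM (1.53-fold, 1.39 to 1.68), where 4.41% of all genes were higher and 4.1% lower. Both calls were lost with doublets kept, with a pseudocount of 10 CPM and with median-of-ratios scaling. The kinase gene aurka was the single one with a ratio under 1, at 22.9 and 22.3 CPM (0.971-fold, 0.849 to 1.11). The venous-like clusters made up other parts of this class in each library, and its ratios were not weighted to the same mix of clusters.

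**Figure D5:**
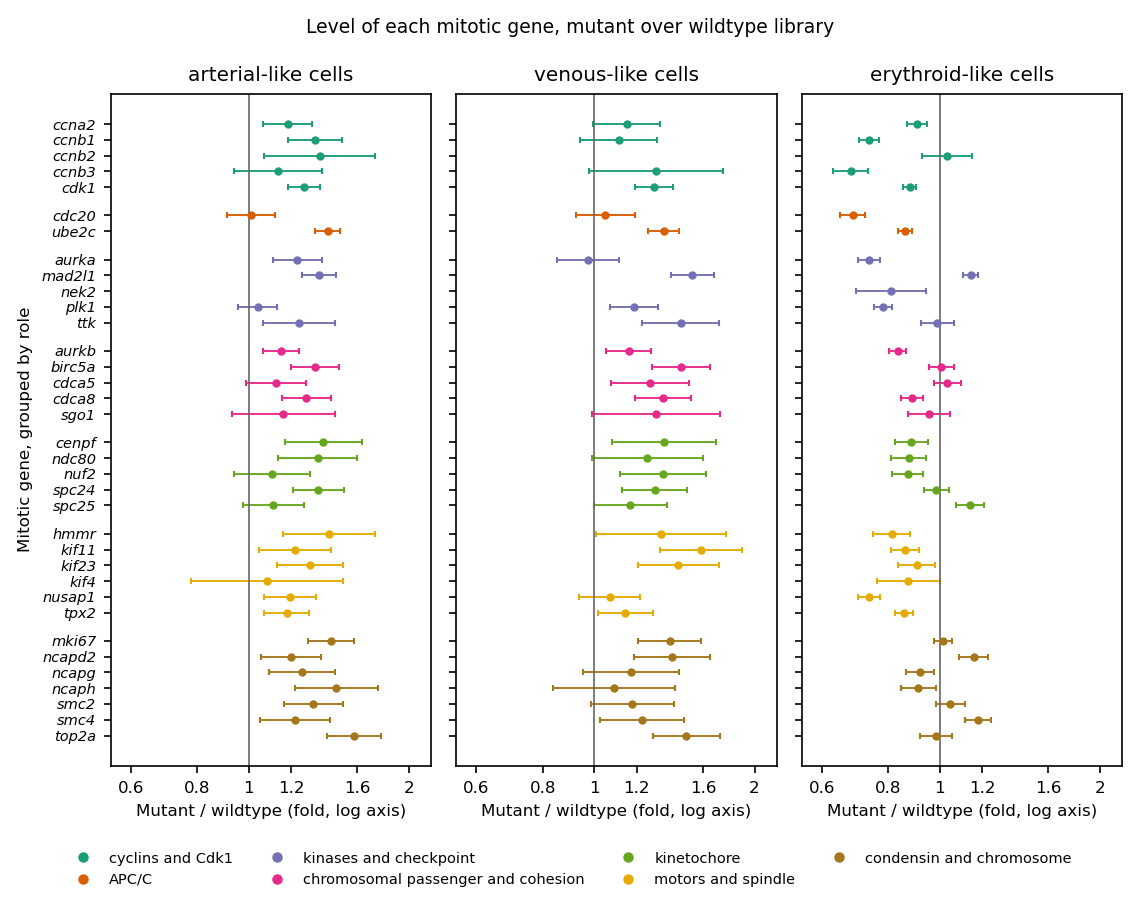
Level of each mitotic gene in the mutant over the wildtype library (x axis, fold, log axis) in arterial-like, venous-like and erythroid-like cells, with exact conditional 95% intervals; colours mark the 7 roles, and genes with a mean under 5 CPM in a class are not drawn. Arterial-like values run from 1.01 for cdc20 to 1.58 for top2a, and erythroid-like values from 0.679 for ccnb3 to 1.18 for smc4.

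Erythroid-like cells went the other way, and unevenly by role. Their summed level was 2177 CPM in wildtype (2162 to 2192) and 1964 in mutant (1954 to 1974), a log2 ratio of -0.15 (-0.16 to -0.14), while the median over all genes tested was 0.15. Of 35 mitotic genes tested, 0 were 1.5-fold higher, where 11.5% of all genes were, and 0 lower, where 3.22% were. A ratio above 1 was found for 9 (68.3% of all genes), an interval below 1 for 22 (20%) and above 1 for 4 (53.5%). The lowest ratios were those of B-type cyclins, cdc20 and spindle genes. The cyclin gene ccnb3 stood at 33.4 CPM in wildtype and 22.7 in mutant (0.679-fold, 0.631 to 0.732), cdc20 at 61.0 and 41.9 CPM (0.686-fold, 0.649 to 0.724) and ccnb1 at 91.7 and 67.4 CPM (0.735-fold, 0.703 to 0.768).

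Next came nusap1 at 76.0 CPM in wildtype and 55.9 in mutant (0.735-fold, 0.701 to 0.772), aurka at 74.3 and 54.7 CPM (0.736-fold, 0.701 to 0.773) and plk1 at 112 and 87.5 CPM (0.783-fold, 0.753 to 0.814). All of these genes except the cyclins also had the smallest ratios among endothelial-like cells. The genes with most UMIs in their roles moved less, with cdk1 at 197 and 173 CPM (0.877-fold, 0.852 to 0.903), ube2c at 183 and 157 CPM (0.861-fold, 0.835 to 0.887) and aurkb at 123 and 102 CPM (0.832-fold, 0.802 to 0.864). The 4 genes above 1 were smc4 at 48.2 and 56.8 CPM (1.18-fold, 1.12 to 1.25), the condensin gene ncapd2 at 37.8 and 43.8 CPM (1.16-fold), mad2l1 at 140 and 160 CPM (1.14-fold) and spc25 at 39.9 and 45.4 CPM (1.14-fold). By role, the motors and spindle genes summed to 292 CPM in wildtype and 241 in mutant, and the condensin and chromosome genes to 346 and 357 CPM. With globins counted in the totals, the latter group was the single role with a ratio above 1, at 1.03-fold. In it, mki67 and top2a had ratios of 1.01 (0.977 to 1.05) and 0.983 (0.918 to 1.05). Globins, at 43.7% of wildtype and 38.1% of mutant UMIs, count in the totals behind these levels. Their share was lower in mutant, so leaving them out would lower all of these ratios, and ratios just above 1 may not stay above it. Ratios of single genes and roles were not recomputed without globins.

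Of the classes in which single genes were called, blood progenitor-like cells had the most mitotic genes past 1.5-fold, from few cells. Mesenchymal-like, epidermal-like and muscle-like cells were not counted in this way. The summed level of the progenitor-like cells was 1138 CPM in wildtype (1097 to 1180) and 1546 in mutant (1485 to 1610). Of 34 genes tested, 8 were 1.5-fold higher, where 11.1% of all genes were, and 0 lower, where 7.38% were. A ratio above 1 was found for 32 (59.5% of all genes), with 17 intervals above 1 (13.1%) and 0 below (6.32%). The largest by number of UMIs were top2a at 27.4 and 57.5 CPM (70 and 88 UMIs, 2.10-fold, 1.52 to 2.92), birc5a at 20.7 and 51.0 CPM (53 and 78 UMIs, 2.46-fold, 1.71 to 3.56) and spc24 at 25.0 and 45.8 CPM (64 and 70 UMIs, 1.83-fold). The others were aurka, cenpf, hmmr, kif4 and nuf2, which gave 10 to 50 UMIs in each library. For aurkb, at 92.3 and 92.8 CPM, the ratio was 1.01 (0.811 to 1.24), and bub1 had 1 UMI in wildtype and 0 in mutant.

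Myeloid-like cells summed to 1419 CPM in wildtype (1382 to 1457) and 1723 in mutant (1692 to 1754). Of 34 genes tested, 3 were 1.5-fold higher, where 6.48% of all genes were, and 0 lower, where 10.9% were, while 29 had a ratio above 1 (40.3% of all genes), 16 an interval above 1 (14%) and 0 one below (23.2%). Past 1.5-fold were sgo1, which protects centromeric cohesion, at 9.74 and 20.9 CPM (2.14-fold, 1.49 to 3.15), birc5a at 51.0 and 95.1 CPM (1.86-fold, 1.59 to 2.19) and kif23, a motor of the central spindle, at 18.5 and 30.7 CPM (1.66-fold, 1.27 to 2.2). The myeloid-like class joins 2 clusters that make up other parts of it in each library. In the lyz-led cluster, 22 of 111 wildtype and 89 of 297 mutant cells passed the gate (19.8% and 29.97%), a difference of 10.1 points (0.43 to 18.5). In the mfap4-led cluster, 23 of 80 and 26 of 89 passed (28.8% and 29.2%), a difference of 0.46 points (-13.2 to 13.9).

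Outside the mitotic genes and the lists, the genes whose level followed the summed mitotic level most closely over the 30 cluster-by-library columns of the authors' table were kpna2, a nuclear import receptor gene (Pearson's r = 0.87), h3f3b.1, a histone H3.3 symbol shared by several features (0.86), the spindle motor gene kifc1 (0.86) and the histone H4 methyltransferase gene kmt5ab (0.85). The next were si:dkey-6i22.5 (0.85), spdl1, of kinetochores (0.85), dnajc9 (0.83), the kinetochore gene cenph (0.83), armc1l (0.82) and banf1, which reassembles nuclei around chromosomes (0.82). The 30 columns share 2 libraries and differ in cells and depth. Of the mitotic genes themselves, aurkb and spc25 had the highest r with the sum that includes them (0.96 each), and smc4 and bub1 were among the lowest (0.49 and 0.44).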

How the data were processed

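The deposited matrices hold raw UMI counts per gene and cell barcode, and their headers name software 3.0.2, per the file headers. Cell Ranger, bcl2fastq, Seurat and GRCz11 are named without roles, per the submitters' processing notes; the annotation release and the rule for calling cells are not given in the sources used here. The authors' deposited table (unit: signal) holds averaged UMIs for 17822 genes, 1 column for each of 15 clusters and library. The number of cells at which every mean of a column became a whole sum (534660 values, tolerance 1e-06) gave cells and summed UMIs, and the filter and clustering behind it are not given in the sources used here.

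The members and lists were chosen with earlier results of these data known. The libraries held 8702 wildtype barcodes (92241952 UMIs) and 9176 mutant barcodes (125149083 UMIs). Cells needed 500 or more detected genes and no more than 10% of UMIs from mitochondria. Scrublet (scanpy 1.11.5, expected share 6%) marked 39 of 7520 wildtype (0.519%) and 224 of 8464 mutant cells (2.65%), which were removed; it acted unevenly, and in wildtype little. Cells were clustered with Leiden (leidenalg 0.10.2, resolution 1, 2000 variable genes, 30 components, 20 neighbours) without 157 cell cycle features and without batch correction. A cluster took the class with most markers raised 2-fold over the lower quartile of clusters (pseudocount 10 CPM). It stayed unnamed with under 3 such markers or with more markers of another class among its 10 leading genes. The names were rebuilt here.

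A gene was called past 1.5-fold after 1 CPM was added to both levels, a step that shrinks ratios at low levels, and only where the libraries averaged 5 CPM or more. Printed folds of single genes have no pseudocount. Levels of 3′ UMIs were not scaled to gene length and are compared within genes. Cells under 2000 UMIs were left out of gated shares (523 wildtype and 334 mutant endothelial-like cells). The named genes were those with most UMIs in each role, those past 1.5-fold, those at 0 and the 10 most alike outside the lists; others shown for contrast were chosen after their values were seen. The counting and thinning steps were tested on simulated data. Python 3.11.15, numpy 2.4.6 and scipy 1.17.1 were used.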

Additional observations from a re-analysis of the deposited data

Results flagged for a closer look

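The share of cells passing the mitotic gate moved in opposite directions in the largest classes. The share differed from wildtype to mutant by 2.99 percentage points in endothelial-like cells and by -4.71 points in erythroid-like cells. Among the endothelial-like clusters built here, the mutant share was lower in clusters 0, 2, 4 and 7 and higher in clusters 1, 5, 6 and 20. The erythroid-like clusters did not share a direction either. The part of the cluster mix in these differences was not tested. With 1 library in each genotype the difference between the classes was not tested. The erythroid value changed sign at full depth, where most of these cells pass, and the endothelial value did not.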

How the results depend on the processing

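Of the 106 values of the main comparisons under an alternative setting, 98 stayed within the counting interval or within 1.5 times the count. Many of the 98 were counts of 0 that stayed at 0, some under stricter settings that could not raise them. The endothelial share difference moved to 4.57 points when cells were thinned to 4000 UMIs, and was 1.56 with the gate of 8 UMIs from 4 genes. The arterial one moved to 12.4 and 2.74 under the same settings, and to 4.67 without the 3 top genes. The erythroid one moved to -1.43 points (-4.67 to 1.86) with a gate of 3 UMIs from 2 genes. It was -2.99 points (-6.08 to 0.17) when cells were thinned to 4000 UMIs, and both of these intervals included 0. The erythroid difference moved to -8.04 with globin genes left out, and reversed to 2.25 at full depth. With median-of-ratios scaling, 2 mitotic genes were past 1.5-fold lower in erythroid-like cells (0 before) and 6 higher in myeloid-like cells (3 before). At 2-fold, 5 remained called in progenitor-like cells and 1 in myeloid-like cells. Reversed among single clusters and kinds were the authors' cluster 0 (0.40 with cluster 2), cluster 14 (0.064 per cell) and the venous share difference (-5.79 at resolution 2); the causes were not tested. At resolution 2 and with doublets kept, no cluster was named progenitor-like, so these gave no value. No paired analysis was possible because each genotype has 1 library, and leaving out a replicate could not be run. Classes with few cells, such as the epidermal-like one, could not resolve differences of a few points.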

Other observations

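A gate of the same size on DNA replication genes, in the same thinned cells, also put erythroid-like and mesenchymal-like cells first and muscle-like cells last. It passed 80.7% and 87.9% of erythroid-like cells (wildtype, then mutant), 74.8% and 71.7% of mesenchymal-like cells, 58.4% and 69.7% of progenitor-like cells, 48.4% and 55.3% of arterial-like cells, 11.1% and 14.5% of venous-like cells, and 4.72% and 1.53% of muscle-like cells. It passed 29.8% and 28.5% of myeloid-like cells, beside 23.6% and 29.8% past the mitotic gate, and 17.9% and 36.4% of epidermal-like cells, beside 20.5% and 13.6%. Arterial-like cells that passed both made up 11.9% in wildtype and 18.6% in mutant.

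Of the further mitotic genes, 2 of 48 were 1.5-fold higher in mutant endothelial-like cells and 0 lower, and of replication genes 2 of 51 were higher and 1 lower, close to the 3.95% and 3.19% of all genes. In arterial-like cells 8 of 57 further mitotic genes were higher and 0 lower, where 4.98% and 3.5% of all genes were, with cenpe, a kinetochore motor gene, at 18.7 and 29.7 CPM. Among the endothelial genes past 1.5-fold, the spindle gene numa1 was at 3.86 CPM in wildtype and 9.14 in mutant, and the motor gene kif15 at 6.67 and 11.6 CPM. Both features of rrm2 passed, in opposite directions, at 50.4 and 30.1 CPM for the first and 116 and 175 CPM for the second, and how reads were shared between these copies is uncertain. The replication gene gins1 was at 16.6 and 26.6 CPM, the p53 target gene sesn1 at 39.7 and 19.4 CPM and phlda3 at 7.10 and 12.3 CPM.

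In clusters left unnamed, the tuba1a-led cluster had 40 of 89 cells past the mitotic gate in wildtype and 38 of 104 in mutant (44.9% and 36.5%). The gate passed 7 of 61 and 15 of 102 cells of a cluster led by krt4 and atp1a1a.3, and 10 of 48 and 9 of 49 cells of one led by col2a1a and col9a1b.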
